A study of Homo sapiens with 4 samples.

Results

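The 9 genes described here encode amino acid transporters of the plasma membrane: SLC7A5, SLC3A2, SLC7A6, SLC7A1, SLC1A5, SLC1A4, SLC38A1, SLC38A2 and SLC38A5. They were chosen by symbol, and all 9 were found once each among the 53777 Ensembl genes of the expression table. RNA was sequenced from NUGC3, an established human stomach cancer cell line, in 2 wild-type libraries and 2 libraries with MYC knocked down (genotypes wild_type and MYC_KD). Both groups are of 1 cell line, and the sources used here do not give how MYC was knocked down, for how long, or which control the wild-type cells received. Separate cultures are not stated for the replicates, so each p-value reflects the spread among these 4 libraries alone, which may be technical.

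Cells cannot make the essential amino acids, and they import these and glutamine through carriers that mostly exchange one amino acid for another or couple uptake to sodium. SLC7A5 (LAT1) carries leucine and other large neutral amino acids only as a partner of SLC3A2, a glycoprotein that takes it to the cell surface, and it exchanges them for glutamine that sodium-driven carriers such as SLC1A5 and the SLC38 family bring in. Imported leucine and arginine activate the growth kinase complex mTORC1, while amino acid shortage acts through the kinase GCN2 and the transcription factor ATF4, which induces many of these transporters. MYC, a transcription factor that drives growth, is known to bind and activate several of them, SLC1A5 and SLC7A5 among them, in other cancer cells.

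Values are FPKM, fragments scaled to transcript length and library size, which allow levels to be compared between genes; the unit was inferred from the values. Steps in the low values put the depth between about 22200000 and 28600000 fragments per library, if a step is 1 fragment. MYC RNA itself was only slightly lower in the knockdown, at 82.88 and 82.01 FPKM in wild type, against 64.98 and 75.81 FPKM in the knockdown. The log2 change was -0.23 (limma adjusted p = 0.237). It was -0.34 with MYC knockdown replicate 2 left out and -0.12 with MYC knockdown replicate 1 left out. The 2 knockdown libraries lay farther apart than the 2 wild-type libraries, with a median absolute log2 difference of 0.20 against 0.08. Interferon-stimulated genes differed most plainly between them: the 24 genes of that list summed to 338 and 336 FPKM in wild type, 1904 FPKM in MYC knockdown replicate 1 and 337 FPKM in MYC knockdown replicate 2. The epithelial markers EPCAM, KRT8, KRT18, KRT19 and CDH1 were all at 54.3 FPKM or above in every library. Of the markers of other cell types, PTPRC and HBB of blood, COL1A2, COL3A1 and DCN of fibroblasts and VWF of endothelium were at 0 in every library, while CD68 reached 22.3 FPKM and COL1A1 8.12 FPKM.

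In wild-type cells the most abundant of the 9 transporters was SLC38A2, at 280 ± 1.98 FPKM (SD, n = 2), a level above that of 97.8% of the 12953 genes tested. It was followed by SLC3A2 at 118 ± 0.728, SLC7A5 at 96.9 ± 0.184 and SLC38A5 at 95.5 ± 0.0566 FPKM (SD, n = 2). SLC38A1 at 73.3 ± 1.48, SLC1A5 at 61.3 ± 2.75, SLC7A1 at 37.9 ± 0.615 and SLC7A6 at 12.1 ± 0.566 FPKM came next (SD, n = 2). SLC1A4 was close to absent, at 0.15 and 0.28 FPKM. No neighbours in this order had overlapping wild-type values, although SLC7A5 and SLC38A5 lay only 1 to 2 FPKM apart. By the knockdown means SLC38A5 stood below SLC38A1 and SLC1A5 below SLC7A1, but 3 pairs of neighbours overlapped: SLC7A5 with SLC38A1, SLC38A1 with SLC38A5, and SLC7A1 with SLC1A5. The 9 genes summed to 777 and 774 FPKM in wild type and to 637 and 555 FPKM in the knockdown.

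**Figure D1:**
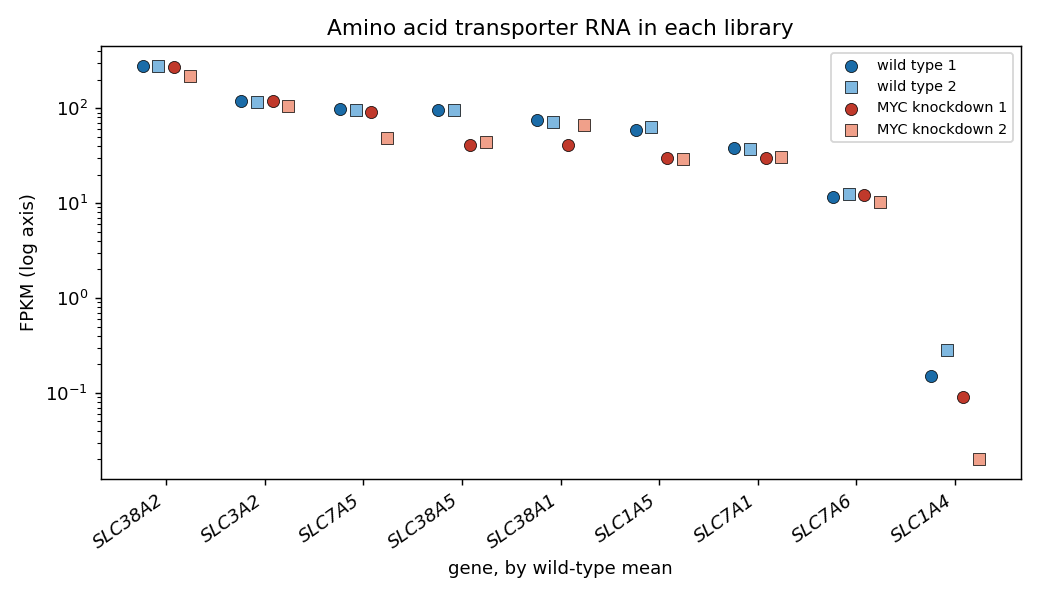
FPKM (log axis) of the 9 transporter genes in each of the 4 libraries, ordered by wild-type mean; each point is 1 library. Both knockdown points of SLC38A5 and SLC1A5 lie well below both wild-type points, SLC7A5 and SLC38A1 are each low in 1 knockdown library only, and SLC1A4 is below 1 FPKM throughout.

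The clearest differences between the groups were in 2 sodium-dependent carriers of glutamine and other small neutral amino acids, SLC1A5 and SLC38A5, whose RNA in the knockdown stood at 48.2% and 44.5% of the wild-type mean. SLC1A5 (ASCT2; ENSG00000105281, chr19:46774883-46788594, minus strand, GENCODE release 29 on GRCh38, as for all gene positions here) exchanges glutamine, alanine, serine and cysteine across the membrane. It was at 59.4 and 63.3 FPKM in wild type, against 30.0 and 29.1 FPKM in the knockdown. The groups were far apart and the knockdown libraries nearly equal. The log2 change, on the log2(FPKM + 1) scale used for every change given here, was -1.03, standard error 0.08 (limma adjusted p = 0.0556 over all genes tested). SLC38A5 (SNAT5; ENSG00000017483, chrX:48458537-48470256, minus strand) carries glutamine, asparagine, histidine, serine and glycine with sodium, in exchange for protons. Its values were 95.5 and 95.6 FPKM in wild type, against 41.2 and 43.8 FPKM in the knockdown, again with no overlap and with close replicates. The estimate for SLC38A5 was -1.15, standard error 0.08 (limma adjusted p = 0.0556). These were the 18th and 5th smallest unadjusted p-values of all 12953 genes, at 9.5e-05 and 4.4e-05, but 147 genes shared the lowest adjusted p of 0.0556 and no gene passed 0.05. Both passed 0.05 with protein-coding genes alone (limma adjusted p = 0.0431), with genes of a mean of at least 5 FPKM (0.0458) and with median-of-ratios scaling (0.0489). Over all genes, 385, 310 and 313 passed under these settings. With MYC knockdown replicate 1 left out, the change was -1.05 for SLC1A5 and -1.11 for SLC38A5. With MYC knockdown replicate 2 left out, it was -1.01 for SLC1A5 and -1.20 for SLC38A5. In those fits the spread comes from the close wild-type pair alone. Neither gene passed 0.05 with wild type replicate 1 left out.

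SLC1A4 (ASCT1; ENSG00000115902, chr2:64988477-65023865, plus strand), the closest relative of SLC1A5 and a carrier of alanine, serine, cysteine and threonine, was at 0.15 and 0.28 FPKM in wild type, against 0.09 and 0.02 FPKM in the knockdown. It stayed under 1 FPKM in every library and so was not tested. Both knockdown values were below both wild-type values, but they amount to few fragments at this depth, and no difference between the groups is read from them. In this line the SLC1A neutral amino acid carrier with measurable RNA was thus SLC1A5.

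The other SLC38 carriers behaved differently from SLC38A5. SLC38A1 (SNAT1; ENSG00000111371, chr12:46183063-46270017, minus strand) and SLC38A2 (SNAT2; ENSG00000134294, chr12:46358189-46372867, minus strand) are neighbours on chromosome 12 and take up glutamine, alanine and other small neutral amino acids with sodium. The wild-type libraries held 74.4 and 72.3 FPKM of SLC38A1, MYC knockdown replicate 1 held 41.3 FPKM and MYC knockdown replicate 2 held 67.3 FPKM. The first knockdown library was at 56.3% of the wild-type mean and the second at 91.8%. The change of -0.47 had a standard error of 0.24 and a 95% interval from -1.10 to 0.16 (limma adjusted p = 0.293). It was -0.81 with MYC knockdown replicate 2 left out and -0.12 with MYC knockdown replicate 1 left out. SLC38A2, the member of the family best known for induction when amino acids run short, was at 282 and 279 FPKM in wild type, against 270 and 221 FPKM in the knockdown. Both knockdown values were lower, the first by little. The change was -0.20 with a 95% interval from -0.50 to 0.11 (limma adjusted p = 0.349). It was -0.34 with MYC knockdown replicate 1 left out and -0.05 with MYC knockdown replicate 2 left out. SLC38A5 made up 21.2% and 21.4% of the summed FPKM of these 3 genes in wild type and 11.7% and 13.2% in the knockdown, while SLC38A2 went from 62.4% in both wild-type libraries to 76.6% and 66.5%. The sum itself was 451 and 447 FPKM in wild type, against 353 and 332 FPKM in the knockdown.

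SLC7A5 (ENSG00000103257, chr16:87830023-87869488, minus strand), the light chain that carries leucine, was near its wild-type level in 1 knockdown library and far below it in the other. Its wild-type values were 97.1 and 96.8 FPKM, with 92.3 FPKM in MYC knockdown replicate 1 and 48.2 FPKM in MYC knockdown replicate 2, or 95.2% and 49.7% of the wild-type mean. The groups did not overlap, but replicate 1 lay close to wild type. The change was -0.53 with a standard error of 0.31 and a 95% interval from -1.35 to 0.29 (limma adjusted p = 0.345). Leaving out MYC knockdown replicate 1 gave -0.99, and leaving out MYC knockdown replicate 2 gave -0.07. The pseudogene copies SLC7A5P1 and SLC7A5P2 held up to 2.07 and 0.79 FPKM as deposited, and how reads were split between them and SLC7A5 was not tested.

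Its partner SLC3A2 (4F2hc; ENSG00000168003, chr11:62856102-62888875, plus strand) showed no such difference. It was at 119 and 118 FPKM in wild type, against 120 and 106 FPKM in the knockdown, so the groups overlapped. The change was -0.07 with a 95% interval from -0.31 to 0.17 (limma adjusted p = 0.671), and 0.03 with all libraries scaled to 1 common FPKM sum. SLC7A6 (y+LAT2; ENSG00000103064, chr16:68264516-68301823, plus strand), another light chain of SLC3A2, which exports arginine in exchange for glutamine and sodium, overlapped as well, at 11.7 and 12.5 FPKM in wild type, against 12.1 and 10.2 FPKM in the knockdown. Its change was -0.12 with a 95% interval from -0.44 to 0.21 (limma adjusted p = 0.593). SLC7A6OS, on the opposite strand and overlapping it, held 5.85 to 7.46 FPKM, and without stated strand the reads of this pair cannot be told apart with certainty.

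SLC7A1 (CAT1; ENSG00000139514, chr13:29509410-29595688, minus strand), the main importer of arginine and lysine in dividing cells, needs no heavy chain. It was at 38.3 and 37.4 FPKM in wild type, against 29.8 and 30.5 FPKM in the knockdown. The groups did not overlap and both pairs were tight, with the knockdown at 79.5% of the wild-type mean. The change of -0.32 had a standard error of 0.08 and a 95% interval from -0.53 to -0.11 (limma adjusted p = 0.102). It was -0.31 and -0.34 with MYC knockdown replicate 1 and 2 left out. With a replicate block the limma adjusted p was 0.186. With either wild-type library left out, the adjusted p was 0.681 and 0.654 for SLC7A1 and between 0.494 and 0.943 for all 8 transporters tested.

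Counted together, 0 of the 8 transporters tested passed an adjusted p of 0.05 in limma, against 0% of all genes in either direction. At an adjusted p under 0.10, 2 were lower and 0 higher, where 4.91% of all genes were lower and 5.5% higher. At an unadjusted p under 0.05, 3 were lower (SLC38A5, SLC1A5 and SLC7A1) and 0 higher, against 11.5% lower and 14.4% higher over all genes. The groups did not overlap, with the knockdown lower, for 6 of 8, against 25.2% of all genes, and with the knockdown higher for 0, against 33.4%. Under scaling to a common FPKM sum, SLC38A1 and SLC38A2 overlapped and the count was 4 of 8, against 18.1% of all genes lower and 44.7% higher. The same scaling moved the calls at 0.10 over all genes from 636 lower and 713 higher to 587 lower and 1643 higher. The median change was -0.39 over the 8 transporters and 0.04 over all genes tested. By library, the transporter median was -0.20 for the first knockdown replicate and -0.32 for the second.

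The knockdown libraries matched each other for some of these transporters and not for others. For SLC7A1, SLC1A5 and SLC38A5 the knockdown pair differed by 0.03, 0.04 and 0.09 on the log2 scale. SLC7A5 differed by 0.92 between the knockdown libraries, a gap exceeded by 3.86% of all genes tested, and SLC38A1 by 0.69, exceeded by 7.33%. Their order was opposite: SLC7A5 was the lower of its pair in MYC knockdown replicate 2, and SLC38A1 in MYC knockdown replicate 1. MYC RNA was at 78.8% of wild type in replicate 1 and 92.0% in replicate 2, and the interferon-stimulated genes were high in replicate 1 alone. The part of either in these gaps was not tested, and each library is a single measurement.

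**Figure D2:**
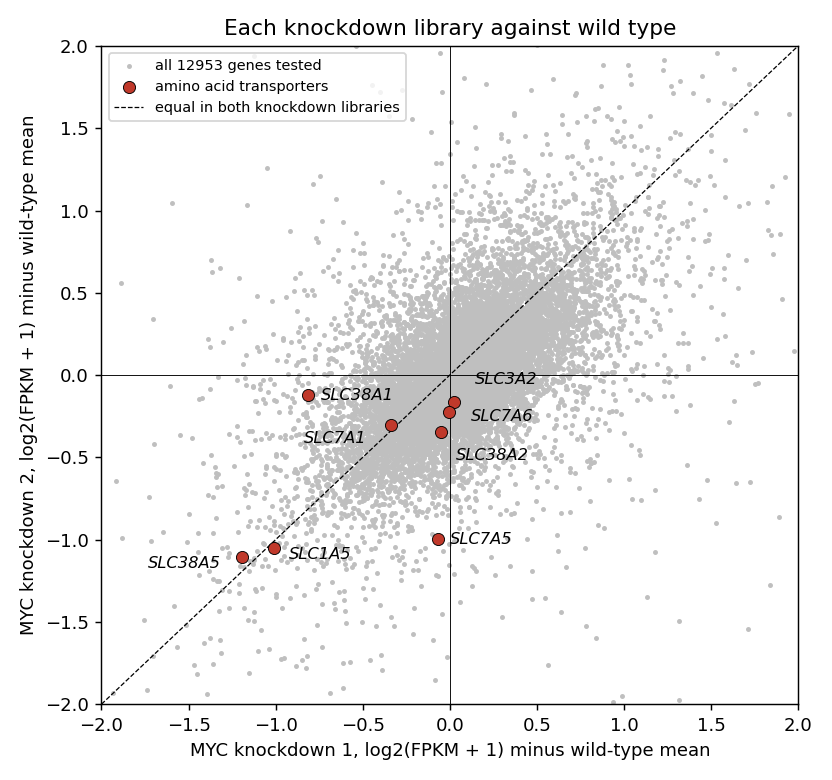
Difference of each gene's log2(FPKM + 1) from its wild-type mean in MYC knockdown replicate 1 (x axis) and MYC knockdown replicate 2 (y axis), with the 12953 genes tested in grey and the 8 tested transporters in red; 84 genes lie outside the axes. SLC1A5, SLC38A5 and SLC7A1 sit on the line of equal difference, SLC7A5 (-0.07 and -0.99) well below it and SLC38A1 (-0.81 and -0.12) well above it.

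SLC3A2 serves several light chains, so the mix of partners can be read from the same libraries. Of the summed FPKM of the light chains SLC7A5, SLC7A6, SLC7A7, SLC7A8, SLC7A10 and SLC7A11, SLC7A5 held 79.4% and 78.6% in wild type, 75.4% in MYC knockdown replicate 1 and only 52.1% in replicate 2. SLC7A11 (xCT), which imports cystine in exchange for glutamate, was chosen here after its values were seen. It stood at 13.1 and 13.5 FPKM in wild type, against 17.4 and 34.1 FPKM in the knockdown, above wild type in both libraries (log2 change 0.83 with a standard error of 0.32, limma adjusted p = 0.197). Its share of the light chains was 10.7% and 10.9% in wild type, 14.2% in MYC knockdown replicate 1 but 36.9% in replicate 2. The light chains together came to 1.03, 1.05, 1.02 and 0.877 times SLC3A2 in the 2 wild-type libraries and then MYC knockdown replicates 1 and 2. Only in the last of these libraries did the heavy chain's RNA exceed their sum. These ratios are of RNA, and no test was run on them.

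**Figure D3:**
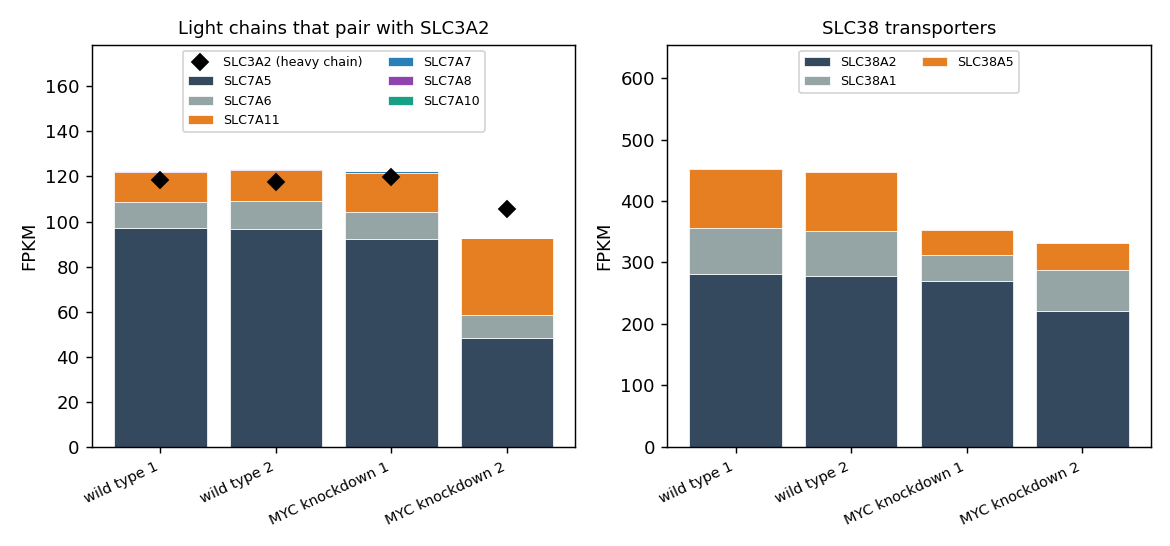
Stacked FPKM per library of the SLC3A2 light chains with SLC3A2 as a black diamond (left) and of the 3 SLC38 members (right). The SLC7A5 bar shrinks and the SLC7A11 bar grows in MYC knockdown replicate 2, and the SLC38A5 bar is far shorter in both knockdown libraries (41.2 and 43.8 FPKM) than in wild type (95.5 and 95.6 FPKM).

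The stretches before the start sites were searched on both strands for the core binding site of MYC and its partner MAX, the E-box CACGTG, since MYC was the factor knocked down. RefSeq lists 15 start sites for the 9 genes (GRCh38.p14), each with a window of 300 bases, 250 before the start and 50 from it on. The whole RefSeq table holds 35116 windows for 27305 genes. A gene with more windows has more chances of a match, which the shares by gene given here do not correct for. SLC7A5, SLC1A5 and SLC38A5 held a CACGTG in a window, 3 of 9 genes, against 8.77% of the 27305 genes. The sequences are shown for these 3 genes, 5′ to 3′ on the gene's own strand, with the E-box in capitals. For SLC7A5 and SLC38A5 these are the whole 250 bases before the start. For SLC1A5 only 82 of the 250 bases are shown, and they stop short of its start at position 46787293.
SLC7A5, chr16:87869508-87869757, minus strand: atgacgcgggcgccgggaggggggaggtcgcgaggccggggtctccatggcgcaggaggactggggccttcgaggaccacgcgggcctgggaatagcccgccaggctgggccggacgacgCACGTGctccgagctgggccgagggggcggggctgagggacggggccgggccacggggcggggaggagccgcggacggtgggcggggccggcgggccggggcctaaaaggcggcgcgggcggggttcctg
SLC1A5, chr19:46787318-46787399, minus strand: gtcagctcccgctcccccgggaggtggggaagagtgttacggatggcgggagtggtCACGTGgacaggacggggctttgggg
SLC38A5, chrX:48470261-48470510, minus strand: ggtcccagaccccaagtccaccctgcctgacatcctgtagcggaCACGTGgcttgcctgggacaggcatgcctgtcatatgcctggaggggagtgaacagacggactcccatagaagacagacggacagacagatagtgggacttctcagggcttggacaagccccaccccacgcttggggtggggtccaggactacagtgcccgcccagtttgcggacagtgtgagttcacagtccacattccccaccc
In SLC7A5 the E-box begins 130 bases before the start, in a stretch rich in CpG (44 CpG in the window, against a median of 14 over all windows). In SLC38A5 it begins 206 bases before the start, in a window with 7 CpG. In SLC1A5 it lies 50 bases before an alternative start inside the gene, downstream of the first coding exon of the full-length transcript, and the window at the outermost start holds no CACGTG. The variant CACGCG, searched on both strands, was found in windows of SLC7A5, SLC3A2 and SLC1A5, 3 of 9 genes against 13.5% of all genes.

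The core of the amino acid response element bound by ATF4 with C/EBP proteins, TGATGNAA on either strand, was found in windows of SLC3A2, SLC1A5, SLC1A4, SLC7A1 and SLC38A1, 5 of 9 genes against 4.46% of all genes. That of SLC7A1 lay 8 bases into the transcript from its outermost start. Those of SLC3A2, SLC1A5, SLC1A4 and SLC38A1 were at starts inside the outermost one listed for the gene. The SLC3A2 match lay 38 bases into the transcript from such a start. Those of SLC1A5, SLC1A4 and SLC38A1 lay 97, 7 and 4 bases before theirs. SLC38A2 and SLC7A6 held none of the 3 motifs in these windows. The windows of SLC1A5 held all 3 motifs, at different start sites. A match of letters in a window is a description and not a measured binding site.

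By the distance between patterns over the 4 libraries (Euclidean, on log2 differences from the wild-type mean), SLC7A5 and SLC3A2 were not alike. Among 9235 other protein-coding genes with a mean of at least 5 FPKM, SLC3A2 ranked 2362nd in likeness to SLC7A5, at a distance of 0.84. By the same distance, SLC7A5 ranked 8195th in likeness to SLC3A2. The nearest to SLC7A5 were HIST1H2BH, EDNRB and PPP2R1B, at distances of 0.11, 0.12 and 0.14, each of which was far lower in MYC knockdown replicate 2 than in the other 3 libraries. Of the transporters, SLC38A2 was the nearest to SLC7A5, at rank 795. The nearest to SLC3A2 were SF3B2, SUGP2 and NR2F6, at 0.0099, 0.012 and 0.014, and of the transporters SLC7A6, at rank 404 and a distance of 0.10. With 4 libraries these are descriptions only.

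Most other plasma membrane amino acid transporters were hardly expressed: of 34, 24 were below the filter of 1 FPKM in 2 libraries. The 10 tested had a median change of -0.04. SLC6A14 and SLC1A1 were under 1 FPKM in both wild-type libraries and passed the filter only through the knockdown libraries, where they were higher, so their direction was set by the filter. At an adjusted p under 0.10, 2 of the 10 were lower and 2 higher, SLC6A14 among the latter, against 4.91% and 5.5% of all genes. At 0.05 there were 0, and at an unadjusted p under 0.05 there were 4 lower and 3 higher, SLC6A14 and SLC1A1 among the latter, against 11.5% and 14.4%. SLC6A6, the taurine carrier, stood at 42.0 and 41.9 FPKM in wild type, against 31.8 and 26.5 FPKM in the knockdown (log2 change -0.51, limma adjusted p = 0.0898). SLC38A10, an SLC38 carrier, stood higher, at 19.8 and 19.1 FPKM against 30.4 and 29.7 FPKM (0.60, limma adjusted p = 0.0569). Of 10 genes of amino acid carriage at the lysosome, 9 were tested, with a median of 0.21, 1 lower and 1 higher at an adjusted p under 0.10, against 4.91% and 5.5% of all genes. The lower was LAPTM4B, known to bring SLC7A5 and SLC3A2 to the lysosome, at 63.0 and 64.0 FPKM in wild type, against 38.7 and 39.8 FPKM in the knockdown (-0.68, limma adjusted p = 0.0556). The higher was PQLC2, an exporter of cationic amino acids from the lysosome, at 4.66 and 3.91 FPKM against 7.02 and 7.58 FPKM (0.65, limma adjusted p = 0.0836).

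Genes that act on imported amino acids stood on both sides. Of 37 tested genes of amino acid sensing upstream of mTORC1, 0 were lower and 4 higher at an adjusted p under 0.10 (0 at 0.05), against 4.91% and 5.5% of all genes, with a median of 0.07. RRAGB, a Rag GTPase, stood at 7.24 and 8.63 FPKM in wild type, against 14.4 and 14.1 FPKM in the knockdown (log2 change 0.78, limma adjusted p = 0.0604). LAMTOR5, a subunit of the Ragulator that anchors the Rag proteins, was at a change of 0.38 (limma adjusted p = 0.0815). Of 14 genes of the amino acid response, 3 were lower and 0 higher at 0.10, against the same 4.91% and 5.5%, with a median of -0.20. These were ATF4, at 279 and 270 FPKM against 187 and 172 FPKM (-0.61, limma adjusted p = 0.0566), its target TRIB3, a pseudokinase, at -1.08 (limma adjusted p = 0.0556), and asparagine synthetase ASNS at -0.68 (limma adjusted p = 0.0815). ASNS was named after its values were seen. With either knockdown library left out, the changes of SLC6A6, SLC38A10, LAPTM4B, PQLC2, RRAGB, LAMTOR5, ATF4 and TRIB3 kept their direction. Each of these fits holds a single knockdown library, and these genes were named for the smallest p of their lists.

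Of 19 tested genes of glutamine and glutamate use, 5 were lower and 1 higher at an adjusted p under 0.10, against 4.91% and 5.5% of all genes, with a median of -0.19 and 0 past 0.05. PSAT1, which uses glutamate to make serine, stood at 82.04 and 82.87 FPKM in wild type, against 48.3 and 40.8 FPKM in the knockdown. Its log2 change was -0.88 (limma adjusted p = 0.0556). PPAT, which uses glutamine in the first step of purine synthesis, was at -0.61 (limma adjusted p = 0.0598). Both kept their direction with either knockdown library left out, in fits that hold a single knockdown library. Both were named for the smallest p of their list. Of 13 genes of branched-chain amino acid breakdown, 0 were called at 0.10, with 2 lower and 2 higher at an unadjusted p under 0.05, against 11.5% and 14.4% of all genes, and a median of -0.08. BCKDK, the kinase that restrains this pathway, was at -0.46 (limma adjusted p = 0.108) and BCAT2, the mitochondrial aminotransferase, at -0.37 (limma adjusted p = 0.143). Of the 20 interferon-stimulated genes tested, 0 were called at 0.10 and 0 had an unadjusted p under 0.05. In that list IFIH1, a sensor of viral RNA, stood at 37.4 and 15.7 FPKM in the knockdown against 12.1 and 11.8 FPKM in wild type, and IRF9, a factor of interferon signalling, at 77.8 and 14.6 against 8.39 and 10.1 FPKM. With MYC knockdown replicate 1 left out, the log2 change was 0.37 for IFIH1 and 0.61 for IRF9. With MYC knockdown replicate 2 left out, it was 1.57 for IFIH1 and 2.95 for IRF9. With either wild-type library left out, the adjusted p of all 14 genes named from these lists by the rule for named genes lay between 0.494 and 0.727.

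**Figure D4:**
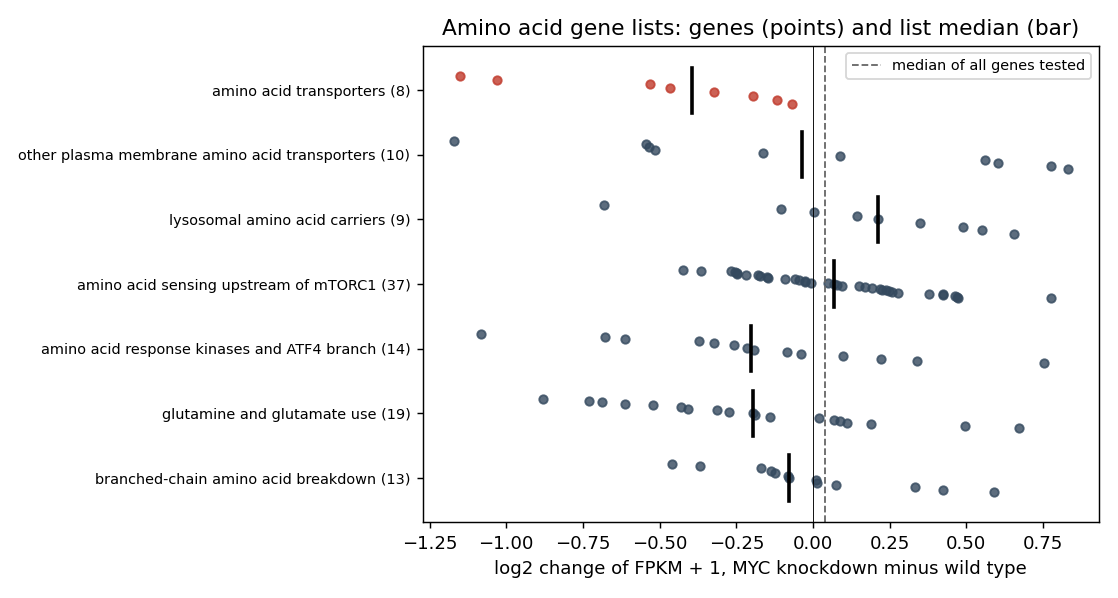
Log2 change of FPKM + 1, knockdown minus wild type, for each tested gene (points) of the transporters (red) and of 6 lists of amino acid genes (dark), with the number tested in brackets, black bars at list medians and a dashed line at the median of all genes tested (0.04). All 8 transporters lie to the left of 0, while the other transporters and the mTORC1 sensing genes spread to both sides; SLC6A14 and SLC1A1 are on the right through the filter.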

How the data were processed

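RNA was measured in 4 NUGC3 libraries, grouped by the sample titles. The submitters' processing notes name STAR and RSEM, and the sources used here do not give versions, genome build, annotation or strandedness. The deposited values are taken as FPKM made by the authors, a unit inferred from column sums that differ between libraries and from low values that step with transcript length. Read counts were not recovered. The 53777 Ensembl rows of 344810 were used. The 12953 genes that reached 1 FPKM in 2 or more libraries were fitted on log2(FPKM + 1) with limma 3.58.1 (R 4.3.3, mean trend in eBayes), Benjamini-Hochberg adjusted over all of them at a threshold of 0.05. A change on this scale understates that of low genes. The fit was tested on simulated data, in which changes of 1 on the log2 scale were not called at 0.05. The simulation shuffled the spreads among genes and changed fewer genes than were called here at 0.10, so it is only a rough guide. With 2 libraries per group, an absence of calls at that size still carries little weight. The named genes were the 9 members, MYC, the 2 genes with the smallest p and a mean of at least 5 FPKM in each other list, and the 3 genes most like SLC7A5 and SLC3A2 in pattern. The members, the lists and the second threshold of 0.10 were chosen with earlier results of these data known. Alternatives were the filter, the pseudocount, 3 scalings, protein-coding genes alone, a replicate block, each library left out and a threshold of 0.10. Overlap of groups with equal column sums was added after seeing the data. Gene positions are from GENCODE release 29, and start sites and their sequences from RefSeq (GRCh38.p14), neither of which need be the build the authors used.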

Additional observations from a re-analysis of the deposited data

How the results depend on the processing

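All 8 tested transporters but SLC3A2 kept their direction in every alternative run; SLC3A2 (-0.07) was at 0.025 with equal column sums and between -0.16 and 0.022 with 1 library left out. The number of transporters past 0.05, 0 as reported, was 2 with a mean of at least 5 FPKM, with median-of-ratios scaling, with protein-coding genes alone and at a threshold of 0.10, and 0 to 5 with 1 library left out. Over all genes these counts were 310, 313, 385 and 1349, and 0 to 3413 with single libraries removed: 3384 and 3413 without the first and second knockdown replicate, and 0 without either wild-type library. In those fits the lone library is assumed to vary like the other group's pair, and the spread is that of the close wild-type pair or of the wider knockdown pair. The transporter median was -0.30 with equal column sums and -0.41 to -0.20 with 1 library left out. The median of the other plasma membrane transporters (-0.04) was 0.22 with a mean of at least 5 FPKM, 0.047 with equal column sums and -0.11 to 0.12 with 1 library left out. That of branched-chain breakdown (-0.08) was 0.011 without the filter, 0.015 with equal column sums and -0.23 to 0.10 with 1 library left out. The cause of these shifts was not tested. Same-numbered libraries did not deviate together (correlation -0.00587 over genes). This cannot tell whether same-numbered libraries were prepared together, which the labels do not say. With a replicate block 0 genes and 0 transporters passed 0.05, and 723 genes passed 0.10 against 1349.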

Other observations

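A few carriers outside the 9 were low in wild-type cells and are given here after their values were seen. SLC7A2 (CAT2), a relative of SLC7A1 that also imports arginine and lysine, stood at 5.81 and 6.62 FPKM in wild type, against 2.24 and 2.16 FPKM in the knockdown, with no overlap (log2 change -1.17 with a standard error of 0.14, limma adjusted p = 0.0556). SLC6A14, a carrier of neutral and cationic amino acids driven by sodium and chloride, stood at 0.44 and 0.45 FPKM in wild type, against 1.40 and 1.55 FPKM in the knockdown. It passed the filter only through the knockdown libraries, so no test is given for it. SLC7A1 and SLC7A2 were thus both lower in both knockdown libraries, and neither passed 0.05. This did not hold for every carrier of cationic amino acids: SLC6A14 was higher in both, and SLC7A6, which exports arginine, overlapped between the groups.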
